A study of Mus musculus with 12 samples.

Results

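The 36 aminoacyl-tRNA synthetase genes described here were taken from the deposited count table by name, 36 of its 25078 genes, and all 36 were found under the listed symbols. Of these, 20 encode the enzymes of the cytosol and 16, named with the suffix 2, encode those of mitochondria. The 36 genes were chosen by name, with earlier results of these data known. Gars and Kars, which each supply both compartments from 1 gene, were counted with the cytosolic enzymes.

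RNA-Seq was performed on donor T cells sorted from the liver of irradiated BALB/c mice on day 6 after hematopoietic cell transplantation (HCT). Donor T cells were from WT, STAT3ko (STAT3-/-) or STAT3ko PD-1ko (STAT3-/-PD-1-/-) C57BL/6 mice, and all recipients also received T cell-depleted bone marrow from WT C57BL/6 mice. The CD4+ and CD8+ cells of each genotype were sequenced in 2 libraries per group, 12 libraries in total, with 21676125 to 24551477 counts each. Each library was made from the pooled cells of 3 recipients. By their titles, the 6 replicate 1 libraries, 1 of each group, carry one run of consecutive library numbers and the 6 replicate 2 libraries a later run, so the replicate number separates 2 complete sets of groups. STAT3 was deleted with Cre driven by the CD4 promoter, so deletion was limited to T-lineage cells, whereas PD-1 deficiency was germline. STAT3-/-PD-1-/- cells carry both changes, and no group lacked PD-1 alone, so a difference between STAT3-/-PD-1-/- and WT cells contains both deletions.

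Aminoacyl-tRNA synthetases join each amino acid to its transfer RNA, and thereby supply the charged tRNAs that ribosomes consume. Several of the cytosolic enzymes are held in a multisynthetase complex on the scaffold proteins Aimp1, Aimp2 and Eef1e1, while a separate nuclear-encoded set charges the tRNAs of the mitochondrial genome. Activated T cells grow and divide rapidly, with a high demand for protein synthesis, and genes of cytosolic synthetases are known targets of ATF4, the transcription factor of the amino acid response, and of MYC.

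The targeted genes were examined first. Levels are CPM, the count of a gene as a share of its library's total on the usual scale, with totals adjusted across the 12 libraries by the trimmed mean of M values (TMM). Stat3 was 369 and 467 CPM in the CD4+ WT libraries, 140 and 164 in STAT3-/-, and 157 and 219 in STAT3-/-PD-1-/-. In CD8+ cells it was 397 and 384, 149 and 136, and 154 and 235 CPM in the same order. Pdcd1, which encodes PD-1, was 247 and 235 CPM in CD4+ WT cells and 55.1 and 26.01 in CD4+ STAT3-/-PD-1-/- cells, and 376 and 307 against 93.6 and 65.6 in CD8+ cells. The targeted transcripts were thus lower in each library of their own genotype, although neither was at 0. Cd4 was between 1242 and 1887 CPM in the 6 CD4+ and between 0.356 and 2.73 CPM in the 6 CD8+ libraries, and Cd8a between 589 and 1339 CPM in the CD8+ and between 0.424 and 5.64 CPM in the CD4+ libraries. The hepatocyte list of 13 genes, with Trf as its most abundant, summed to 2.27 and 4.02 CPM in WT, 1.60 and 3.29 in STAT3-/- and 2.34 and 4.61 in STAT3-/-PD-1-/- CD4+ libraries, and to 2.05 and 4.75, 1.64 and 2.66, and 3.62 and 5.80 CPM in CD8+ libraries. Of its 4 tested genes, Trf alone was called, higher in STAT3-/-PD-1-/- than in STAT3-/- CD8+ cells, where the median of the 4 was 0.87. Neutrophil and erythroid markers summed to at most 1.14 and 0.563 CPM and none was tested. Of the endothelial and platelet markers, with Pecam1 and Itga2b as the most abundant, none was called between STAT3-/-PD-1-/- and WT or STAT3-/- cells.

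To look for sequences that the synthetase promoters share, RefSeq windows of 300 bases (250 before and 50 after the annotated start, GRCm38.p6) were searched on both strands. Of the 36 genes, 27 had a window (Mars under the symbol Mars1). TGATGNAA, the letters of the C/EBP-ATF response element bound by ATF4, or its reverse complement TTNCATCA, was present in 5 of the 27 genes, against 4.51% of all 27025 genes with a window. The 5 genes, Aars, Gars, Iars, Tars and Yars, were all cytosolic, and none of the 14 mitochondrial genes with a window held the letters. The E-box CACGTG, bound by MYC and other factors, was present in 5 of the 27 (Aars, Ears2, Farsb, Iars and Tars) against 8.09% of all genes, and TTCCNGGAA, the letters of a STAT site, in 1 (Kars) against 1.35%. Shown are the stretches of the 5 genes with TGATGNAA and of Kars, because the values of these genes are given with the results, and those of Farsb and Ears2, which held the E-box alone, are left out. They are written 5′ to 3′ on the gene's strand and end 26 bases past the annotated start, and capitals mark the matches, of which no pair shared a base.
Aars (chr8:111033692-111033867, plus strand): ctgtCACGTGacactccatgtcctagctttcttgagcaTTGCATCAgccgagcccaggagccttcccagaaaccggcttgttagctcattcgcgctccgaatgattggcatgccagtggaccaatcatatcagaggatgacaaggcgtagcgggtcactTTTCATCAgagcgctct
Gars (chr6:55037951-55038026, plus strand): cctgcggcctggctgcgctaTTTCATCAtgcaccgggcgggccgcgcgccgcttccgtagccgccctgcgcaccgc
Iars (chr13:49682057-49682155, plus strand): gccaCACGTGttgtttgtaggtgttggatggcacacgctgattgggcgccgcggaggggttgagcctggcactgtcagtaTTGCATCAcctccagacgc
Tars (chr15:11399633-11399708, minus strand): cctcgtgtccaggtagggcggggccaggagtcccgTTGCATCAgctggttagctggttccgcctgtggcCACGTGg
Yars (chr4:129189853-129189928, plus strand): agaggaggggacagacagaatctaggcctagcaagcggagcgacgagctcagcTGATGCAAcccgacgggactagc
Kars (chr8:112011329-112011404, minus strand): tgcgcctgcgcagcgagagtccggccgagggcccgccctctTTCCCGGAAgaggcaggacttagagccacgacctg
A match describes the letters in these windows and is not a measured binding site.

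In WT cells, levels per kb of gene model spanned a wide range, and cytosolic enzymes were generally the more abundant. Lars2, the mitochondrial leucine enzyme, had the highest level, at 133 ± 55.9 CPM per kb (SD, n = 2) in CD4+ and 189 ± 3.78 in CD8+ cells. In CD4+ cells it was followed by Kars, for lysine, at 112 ± 6.02 and Qars, for glutamine, at 98.6 ± 9.71 CPM per kb, and the libraries of Lars2 overlapped those of Kars. The counts of Lars2 followed those of a ribosomal RNA precursor (values are given with the summed levels), which limits its rank and its ratio to Lars. The lowest CD4+ levels were those of mitochondrial enzymes, Ears2 for glutamate at 0.98 ± 0.19, Wars2 for tryptophan at 1.96 ± 0.26 and Pars2 for proline at 2.68 ± 1.15 CPM per kb. In CD8+ cells Nars2, at 3.09 ± 0.49, lay below Pars2, at 3.29 ± 0.38. Among 14 cytosolic and mitochondrial partners for the same amino acid, the cytosolic gene had the higher level per kb in 11 in CD4+ and in 11 in CD8+ cells, with a median ratio of 4.83 and 4.66. In CD4+ cells the ratio was above 20 for Nars over Nars2 (22.4) and Vars over Vars2 (20.3), and below 1 for Cars, Iars and Lars (0.844, 0.511 and 0.194). For lysine and glycine there is no separate mitochondrial gene.

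**Figure D1:**
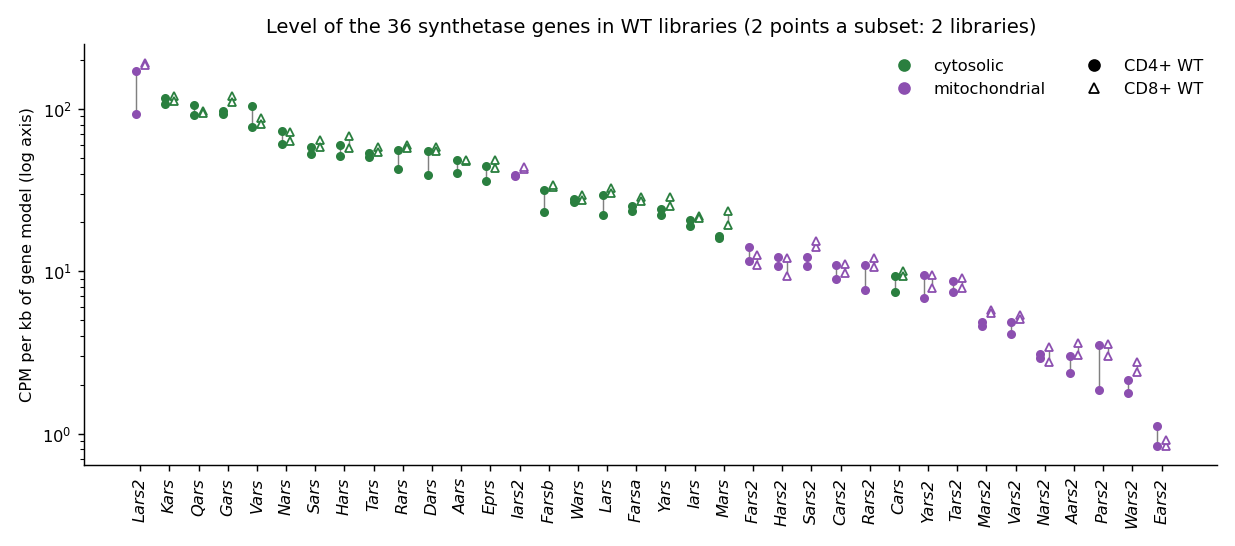
Level of each of the 36 synthetase genes in WT libraries, as CPM per kb of gene model on a log axis, ordered by the CD4+ mean. Circles are the 2 CD4+ and triangles the 2 CD8+ WT libraries, green for cytosolic and purple for mitochondrial enzymes. Cytosolic genes fill most of the upper range, and Lars2 stands at the top with CD4+ libraries far apart.

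To find whether STAT3 loss alone changed these genes, STAT3-/- cells were compared with WT. No synthetase gene was called in either subset by edgeR's quasi-likelihood test at an adjusted p under 0.05, where 0.334% of 11959 genes were called in CD4+ and 0.0583% of 12002 in CD8+ cells. The median log2 fold change of the 36 was 0.02 in CD4+ and 0.06 in CD8+ cells. At an unadjusted p under 0.05 there was 1 gene in CD4+ cells and 0 in CD8+ cells, against 10.5% and 11% of all genes. DESeq2 also called 0 in both subsets. No count with the replicate number as a block is given for this comparison. Same-numbered deviations of STAT3-/- and WT libraries correlated by 0.725 (CD4+) and 0.733 (CD8+). The smallest unadjusted p in CD4+ cells was that of Wars2, at 9.41 and 7.79 CPM in WT and 12.1 and 13.8 CPM in STAT3-/- libraries, with a log2 fold change of 0.59 ± 0.23 (SE; edgeR adjusted p = 0.411). Ears2 (-0.41 ± 0.25) and Mars (0.24 ± 0.15) followed. In CD8+ cells the smallest were those of Tars2 (0.33 ± 0.15), Cars (0.24 ± 0.12) and Wars2 (0.35 ± 0.21), none of which passed the test. Kars, whose promoter held the STAT letters, differed from WT by -0.16 ± 0.15 in CD4+ and 0.01 ± 0.12 in CD8+ cells.

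In CD8+ cells that lacked both STAT3 and PD-1, 13 of the 36 synthetase genes were higher than in WT and none was lower. That is 36.1% of the genes, whereas 17.2% of 12002 genes were called and 9.01% were called higher. The called genes were 11 of 20 cytosolic and 2 of 16 mitochondrial enzymes. The median log2 fold change was 0.45 over the cytosolic and 0.27 over the mitochondrial genes, against -0.00062 over all genes tested. Of the 36 values, 32 were above 0, against 50% of all genes, and in 26 the STAT3-/-PD-1-/- and WT libraries did not overlap, against 59.7%. In sorted bulk RNA, a change in the share of cells in some state cannot be told apart from a change in RNA per cell.

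The largest change was that of Cars, the cysteine enzyme (chromosome 7, 143557230 to 143600090, minus strand). Cars was 32.2 and 30.2 CPM in the WT libraries, 38.4 and 35.5 in STAT3-/-, and 56.7 and 60.2 in STAT3-/-PD-1-/-. Both STAT3-/-PD-1-/- libraries lay above the 4 others, and the log2 fold change over WT was 0.92 ± 0.12 (edgeR adjusted p = 0.00613). Eprs (chromosome 1, 185363044 to 185428360, plus strand), the fused enzyme for glutamate and proline, was 239 and 213 CPM in WT, 252 and 226 in STAT3-/-, and 368 and 374 in STAT3-/-PD-1-/-. Its log2 fold change was 0.73 ± 0.11 (edgeR adjusted p = 0.00934). Mars (chromosome 10, 127296221 to 127311786, minus strand), which charges the initiator as well as the elongator methionine tRNA, was 70.2 and 57.1 CPM in WT, 80.4 and 69.0 in STAT3-/-, and 101 and 109 in STAT3-/-PD-1-/-. The 2 STAT3-/-PD-1-/- libraries were again the highest of the 6, with a log2 fold change of 0.73 ± 0.14 (edgeR adjusted p = 0.018). Mars overlaps Ddit3, a gene of the same stress response, by 68 bases on the opposite strand, and whether reads were counted by strand was not given in the sources used here.

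Vars, the valine enzyme (chromosome 17, 35000907 to 35016329, plus strand), was 373 and 339 CPM in WT, 434 and 362 in STAT3-/-, and 527 and 649 in STAT3-/-PD-1-/- CD8+ cells, a log2 fold change of 0.73 ± 0.14 over WT. Yars, for tyrosine (chromosome 4, 129189903 to 129219240, plus strand), was 68.5 and 60.9 CPM in WT, 66.4 and 57.1 in STAT3-/-, and 92.9 and 102 in STAT3-/-PD-1-/-, with a log2 fold change of 0.60 ± 0.13. Iars, for isoleucine (chromosome 13, 49682130 to 49734267, plus strand), was 97.0 and 93.3, 106 and 102, and 147 and 138 CPM in the same order, with a log2 fold change of 0.59 ± 0.11. In each of these genes the STAT3-/-PD-1-/- libraries did not overlap the others. Lars, for leucine (chromosome 18, 42202298 to 42262125, minus strand), was 128 and 119, 130 and 128, and 183 and 169 CPM, with a log2 fold change of 0.52 ± 0.11. Tars2, for threonine in mitochondria (chromosome 3, 95739974 to 95754977, minus strand), was 35.9 and 41.2 CPM in WT and 51.5 and 62.0 in STAT3-/-PD-1-/-, with a log2 fold change of 0.57 ± 0.15, but its STAT3-/- libraries, at 46.9 and 50.3 CPM, lay between them. The other called genes were Kars (0.49), Farsb (0.45), the beta subunit for phenylalanine, Nars (0.44), for asparagine, Wars (0.43), the interferon-inducible tryptophan enzyme, and Iars2 (0.41), the mitochondrial isoleucine enzyme, with edgeR adjusted p from 0.032 to 0.048. Farsb and Iars2 each overlap a protein-coding neighbor on the opposite strand, Sgpp2 and Rab3gap2.

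**Figure D2:**
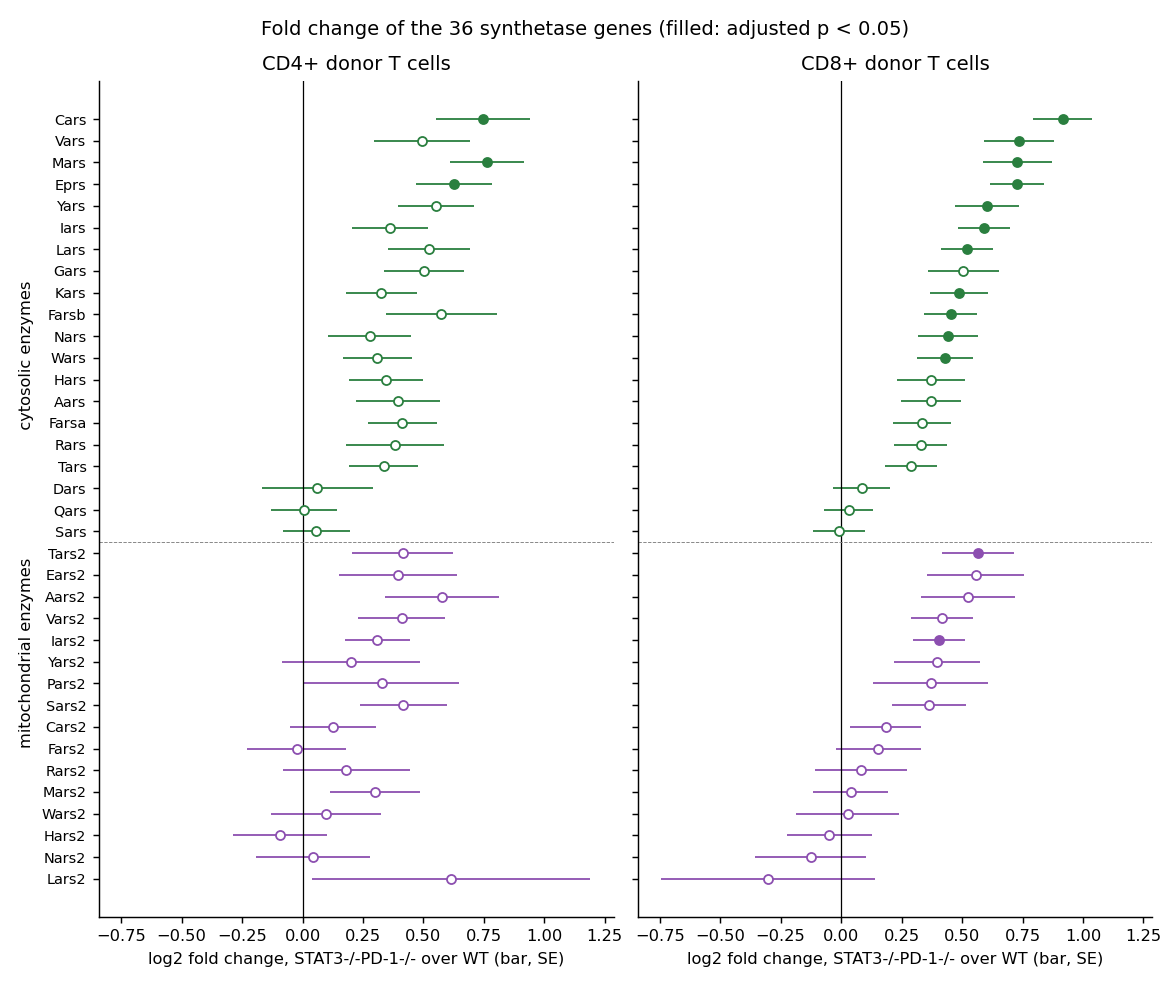
Log2 fold change of STAT3-/-PD-1-/- over WT for the 36 synthetase genes in CD4+ (left) and CD8+ cells (right), with bars of 1 SE and filled points where the edgeR adjusted p was under 0.05. Genes are ordered within each compartment by the CD8+ value. Filled points number 3 in CD4+ and 13 in CD8+ cells and lie to the right of 0, and Sars, Qars and Dars sit near 0 in both.

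The cytosolic enzymes did not move as 1 block. Sars, Qars and Dars, for serine, glutamine and aspartate, were abundant and close to WT in CD8+ cells, with log2 fold changes of -0.01 ± 0.11, 0.03 ± 0.10 and 0.09 ± 0.12. Qars was 242 and 238 CPM in WT and 237 and 250 CPM in STAT3-/-PD-1-/- cells. Of the 8 enzymes of the multisynthetase complex, 5 were called (Eprs, Iars, Lars, Mars and Kars), and of the 12 free cytosolic enzymes, 6. Among the scaffolds, Aimp2 rose by 0.70 ± 0.16 (edgeR adjusted p = 0.0243), while Aimp1 (0.06 ± 0.13) and Eef1e1 (-0.02 ± 0.20) were not called. Among the 14 pairs of partners, the cytosolic enzyme alone was called for cysteine, leucine, methionine, asparagine, tryptophan, tyrosine and valine, the mitochondrial enzyme alone for threonine, and both for isoleucine. The phenylalanine enzyme has 2 subunits, and Farsa stood for it in the pairs and was not called, while Farsb was called and Fars2 was not. The cytosolic fold change was the larger in 11 of the 14 pairs. A call depends on the counts as well as on the fold change. Aars2 (0.52) and Ears2 (0.56) were not called, with larger fold changes than the called Nars (0.44) and Wars (0.43). In WT CD8+ libraries Aars2 had 252 and 332 counts and Ears2 123 and 149, against 1917 and 1991 of Wars. Lars2, Nars2 and Hars2, also not called, were below 0 (-0.30, -0.13 and -0.05).

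Leaving out 1 library cut the CD8+ count. It was 4 without WT replicate 1, 1 without WT replicate 2, 3 without STAT3-/-PD-1-/- replicate 1 and 0 without STAT3-/-PD-1-/- replicate 2, and it was 8 when the STAT3-/- libraries were not in the fit. Cars was called in 3 of these 4 omissions, Eprs and Vars in 2 and Mars in 1, and no called gene turned to a negative fold change. Over all genes the calls fell from 2066 to between 111 and 1107 in the same omissions. With the replicate number as a block, 17 synthetase genes were called over WT, and 2965 of all genes.

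Against STAT3-/- CD8+ cells, which differ by PD-1, 10 of the 36 synthetase genes were higher in STAT3-/-PD-1-/- cells and none was lower, where 16.8% of all genes were called and 8.76% were called higher. These were 9 cytosolic genes and Ears2. Cars, Eprs, Farsb, Iars, Kars, Lars, Vars and Yars were called against both WT and STAT3-/- cells, which share the STAT3-/-PD-1-/- libraries. Cars rose by 0.67 ± 0.12, Yars by 0.67 ± 0.13 and Eprs by 0.65 ± 0.11 on the log2 scale (edgeR adjusted p = 0.0146, 0.0191 and 0.0138). Vars rose by 0.58 ± 0.14, Kars by 0.48 ± 0.12, and Iars and Lars by 0.46 ± 0.11 each. Rars, the arginine enzyme, was 120 and 110 CPM in STAT3-/- and 160 and 152 CPM in STAT3-/-PD-1-/- cells (0.45 ± 0.11), and Farsb rose by 0.43 ± 0.11. Ears2, the least abundant gene of the 36, was 4.402 and 4.66 CPM in STAT3-/- and 8.49 and 8.20 CPM in STAT3-/-PD-1-/- cells, with 5.47 and 5.95 CPM in WT, and rose by 0.89 ± 0.20 over STAT3-/- (edgeR adjusted p = 0.028). The median log2 fold change was 0.44 over the cytosolic and 0.21 over the mitochondrial genes, and among the 14 pairs the cytosolic partner alone was called in 6 (Cars, Iars, Lars, Rars, Vars and Yars). With 1 library left out, the count was 4 without STAT3-/- replicate 1, 1 without STAT3-/-PD-1-/- replicate 1, and 0 without replicate 2 of either genotype. With the replicate block it was 16, and 2932 of all genes were called against 2017 without the block.

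In CD4+ cells, 3 synthetase genes were higher in STAT3-/-PD-1-/- than in WT cells and none was lower. This share, 8.33%, was near that of all genes tested, of which 12.9% were called and 7.21% were called higher. Mars was 47.5 and 49.2 CPM in WT, 53.6 and 60.0 in STAT3-/-, and 76.6 and 85.1 in STAT3-/-PD-1-/-, with a log2 fold change of 0.76 ± 0.15 (edgeR adjusted p = 0.0204). Cars was 23.96 and 30.3, 27.9 and 32.5, and 41.0 and 48.6 CPM in that order (0.75 ± 0.19, edgeR adjusted p = 0.0459). Eprs was 218 and 177, 212 and 183, and 300.01 and 300.6 CPM (0.63 ± 0.16, edgeR adjusted p = 0.0407). In all 3 the STAT3-/-PD-1-/- libraries lay above the 4 others. The fold changes of the remaining genes were mostly in the same direction, with 34 of 36 above 0 against 49% of all genes, and medians of 0.39 over the cytosolic and 0.30 over the mitochondrial enzymes against -0.01 over all genes. In 24 of the 36 the STAT3-/-PD-1-/- and WT libraries did not overlap, against 59.2% of all genes. Partners differed in call for cysteine and methionine, with the cytosolic gene alone called.

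Against STAT3-/- CD4+ cells, Eprs alone was called (0.63 ± 0.16, edgeR adjusted p = 0.0452), where 11.1% of all genes were called and 6.05% were called higher, and Gars (0.64 ± 0.17) was just outside the threshold with an edgeR adjusted p of 0.0509. Gars was 202 and 211 CPM in STAT3-/- and 276 and 357 CPM in STAT3-/-PD-1-/- libraries, and its groups did not overlap. Fold changes over STAT3-/- were above 0 in 31 and below 0 in 5 of the 36 genes, against 5857 above 0 of all 11959. Medians were 0.47 over the cytosolic and 0.21 over the mitochondrial enzymes, against -0.01 over all genes. The CD4+ calls depended on which libraries were in the fit. No synthetase gene was called against WT when any 1 of the 4 WT and STAT3-/-PD-1-/- libraries was left out, and Eprs was called against STAT3-/- in none of the 4 omissions. Without STAT3-/- replicate 2, Lars2 was called instead (1.93 ± 0.37), against the lone library in which Lars2 had the fewest counts of the 12. Calls over all genes against WT also fell from 1538 to between 62 and 676 in these omissions. With the replicate number as a block, 12 synthetase genes were called higher over WT and 15 over STAT3-/- CD4+ cells, and the calls over all genes rose to 3104 and, from 1324, to 3105 of 11959. Taken within a replicate number, 1 library against 1 and with no test, the STAT3-/-PD-1-/- level was above WT in 30 (replicate 1) and 32 (replicate 2) of the 36 genes in CD4+ cells and in 31 and 31 in CD8+ cells, with cytosolic medians of 0.33 and 0.46, and 0.33 and 0.51.

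**Figure D3:**
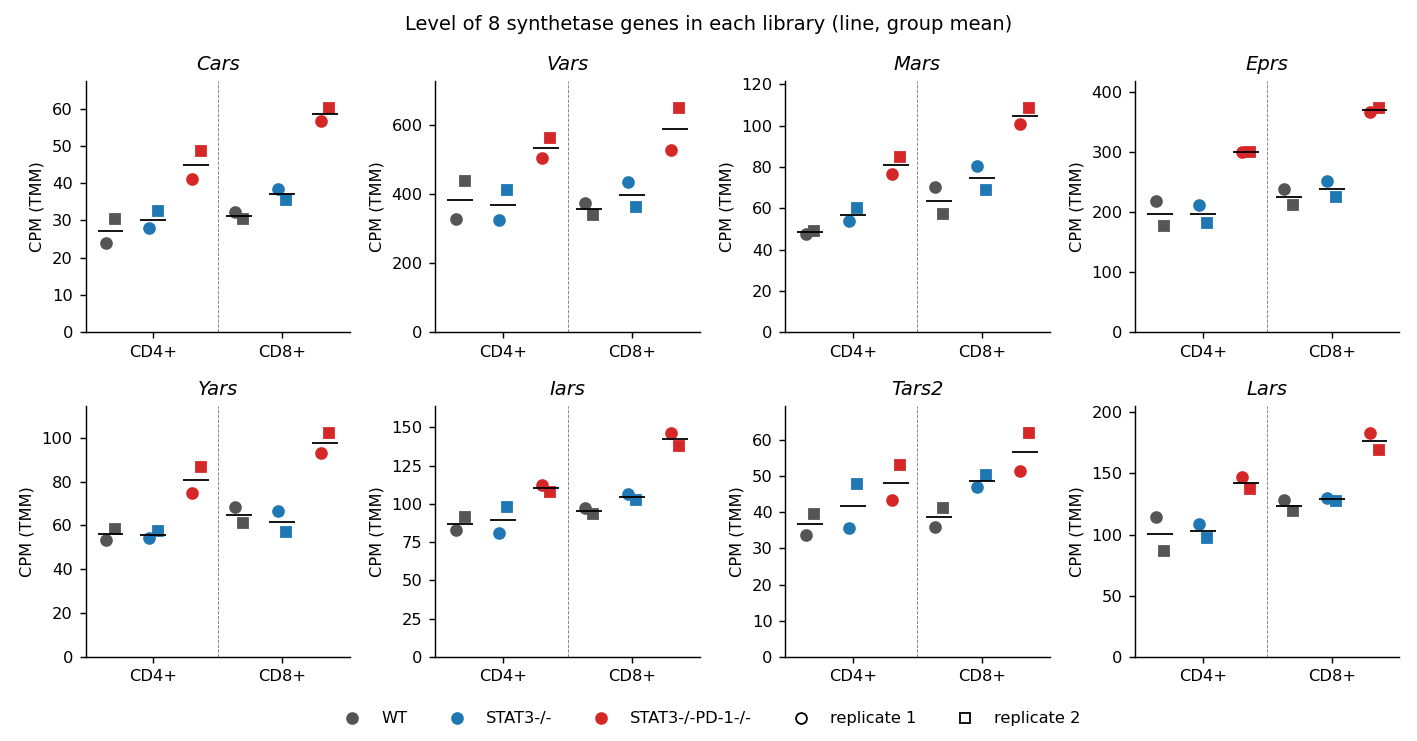
CPM (TMM-scaled) of the 8 called synthetase genes with the largest fold change in CD8+ cells, in each of the 12 libraries, with CD4+ at the left and CD8+ at the right of each panel. Circles are replicate 1, squares replicate 2, and lines group means. In Cars, Eprs and Mars both STAT3-/-PD-1-/- libraries lie above the 4 others in each subset, and Tars2 overlaps its STAT3-/- libraries in CD4+ cells.

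The difference between the subsets was tested directly in a fit of all 12 libraries. No synthetase gene passed the interaction test for any genotype contrast by edgeR or DESeq2. For STAT3-/-PD-1-/- over WT, 0.00811% of 12334 genes passed, and for the other contrasts 0%. None of the 36 had an unadjusted interaction p under 0.05, against 1.85% (STAT3-/- over WT), 4.43% (STAT3-/-PD-1-/- over WT) and 3.59% (STAT3-/-PD-1-/- over STAT3-/-) of all genes. The smallest unadjusted interaction p for STAT3-/-PD-1-/- over WT was that of Iars, whose log2 fold change was 0.59 in CD8+ and 0.36 in CD4+ cells, a difference of 0.24 ± 0.17 (edgeR adjusted p = 1). With a block that pairs the CD4+ and CD8+ libraries of the same genotype and number, again no synthetase gene passed for any contrast and none had an unadjusted p under 0.05, where 0%, 0.681% and 0.178% of all genes passed in the same order and 5.12%, 10.7% and 9.84% were at an unadjusted p under 0.05. The smallest p among the 36 for STAT3-/-PD-1-/- over WT was then that of Lars2, with a difference of -1.11 ± 0.60 (edgeR adjusted p = 0.592). A difference between the subsets in the response of these genes was therefore not shown. Fold changes over WT had the same sign in CD4+ and CD8+ cells for 32 of the 36 genes, with r = 0.695 across genes, which are not independent replicates, in CD4+ and CD8+ cells that the study describes as taken from livers of the same recipients.

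Between the subsets in WT, no synthetase gene was called by edgeR or DESeq2, where 10.5% of all genes were by edgeR, and 2 were at an unadjusted p under 0.05, against 22.1%. The values were higher in CD8+ cells for 31 of 36 genes, against 50.2% of all genes, with a median log2 difference of 0.18. The smallest p was that of Mars, at 47.5 and 49.2 CPM in CD4+ and 70.2 and 57.1 CPM in CD8+ cells (0.40 ± 0.14, edgeR adjusted p = 0.117), followed by Sars2 (0.36 ± 0.16) and Lars (0.30 ± 0.14). With the block of genotype and replicate number, 3 genes were called, Wars2 (0.39 ± 0.12), Lars (0.31 ± 0.09) and Mars (0.39 ± 0.12), where 24.3% of all genes were.

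Summed over the genes, the cytosolic enzymes had levels of 980.2 ± 40.7, 961 ± 41.2 and 1236 ± 74.3 CPM per kb (SD, n = 2) in the WT, single and double deficient CD4+ cells, and of 1070.0 ± 58.7, 1107 ± 73.5 and 1422 ± 67.9 in CD8+ cells. The 15 mitochondrial enzymes other than Lars2 summed to 131 ± 2.90, 134 ± 2.12 and 152 ± 0.85 CPM per kb in CD4+, and 143 ± 0.28, 152 ± 0.07 and 175 ± 4.24 in CD8+ cells. Both of these sums were highest in the STAT3-/-PD-1-/- libraries of each subset. With Lars2 included, the mitochondrial sum was 263 ± 53.03, 265 ± 112 and 353 ± 52.3 CPM per kb in CD4+ and 333 ± 4.101, 323 ± 75.4 and 327 ± 98.5 in CD8+ cells, so that it was not highest in double deficient CD8+ cells.

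**Figure D4:**
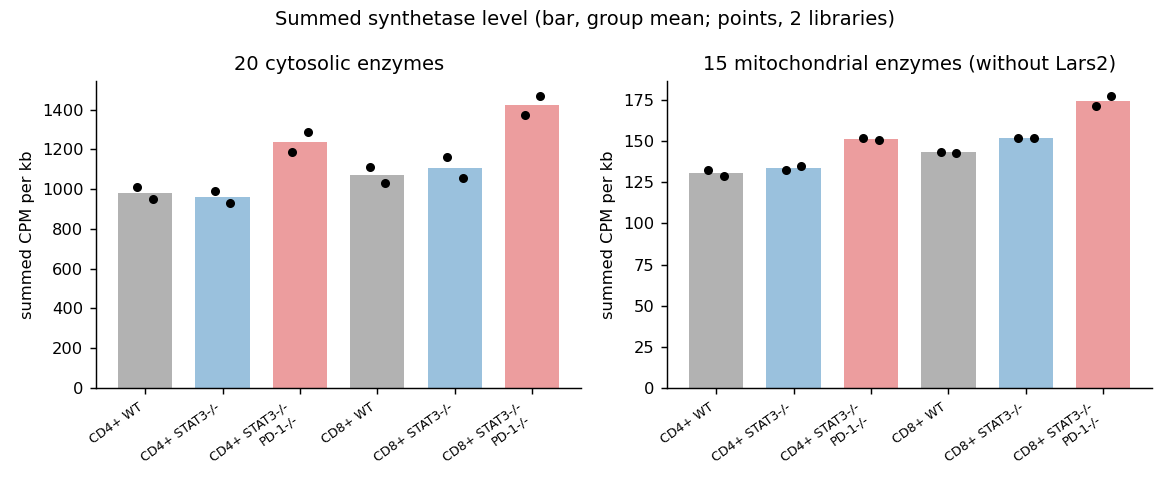
Summed level of the 20 cytosolic enzymes (left) and of the 15 mitochondrial enzymes without Lars2 (right), in CPM per kb of gene model. Bars are group means from 0, and points are the 2 libraries of each group. The STAT3-/-PD-1-/- points lie above those of WT and STAT3-/- cells in both subsets and both panels.

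Lars2 was left out of the second sum because its counts followed those of Rn45s, the 45S ribosomal RNA precursor, and not the genotype. In the 6 libraries numbered replicate 1, Lars2 had 5045 to 24327 counts and Rn45s 112448 to 429540, a ratio of 4.487 to 5.705 Lars2 counts per 100 Rn45s counts. In those numbered replicate 2, the ratio was 10.57 to 12.03. Across the 6 replicate 1 libraries the log2 CPM of Lars2 and Rn45s had r = 0.991, against -0.768 to 0.749 for the other 35 genes, and across the replicate 2 libraries r = 0.935 against -0.605 to 0.837. These values are descriptions over 6 libraries of 6 groups. The fold change of Lars2 over WT was 0.62 ± 0.58 in CD4+ and -0.30 ± 0.44 in CD8+ cells, and it made up between 28.8% and 60.9% of the summed mitochondrial level per kb. The part of ribosomal RNA in the Lars2 counts was not tested.

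**Figure D5:**
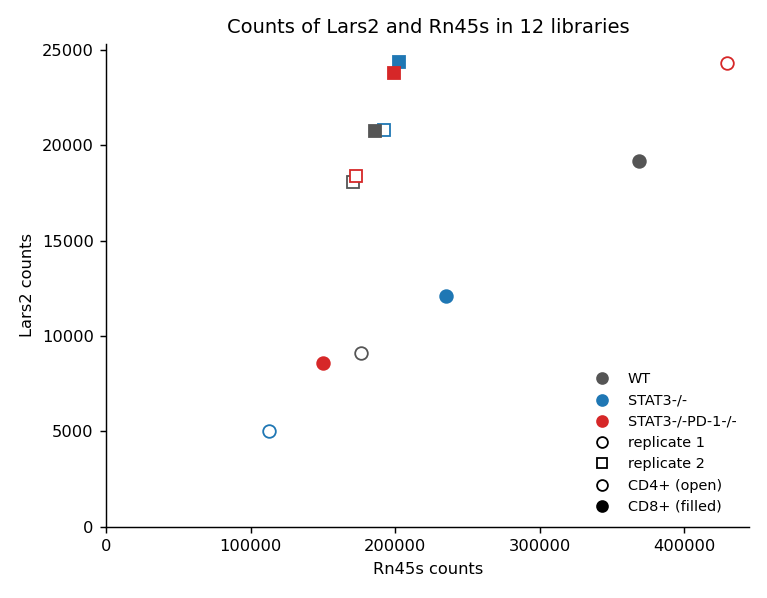
Counts of Lars2 against counts of Rn45s, in the 12 libraries. Color gives the genotype, circles are replicate 1 and squares replicate 2, open symbols CD4+ and filled CD8+ cells. The points fall along 2 lines, one for each replicate number, with the circles at 4.487 to 5.705 and the squares at 10.57 to 12.03 Lars2 counts per 100 Rn45s counts.

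Genes that act beside the synthetases were read from the same fits. Tarsl2, a second threonyl-tRNA synthetase outside the 36, was 11.2 and 11.1 CPM in WT and 21.5 and 21.8 CPM in STAT3-/-PD-1-/- CD4+ cells, and rose by 0.98 ± 0.18 (CD4+) and 0.69 ± 0.14 (CD8+) over WT. Xpot, which exports tRNA from the nucleus, rose by 0.66 ± 0.17 and 0.83 ± 0.13 in the same order. With Aarsd1 and Sephs2 these made 4 of 15 related genes called higher over WT in each subset, and none was lower, against 7.21% (CD4+) and 9.01% (CD8+) of all genes called higher. Of 6 cytosolic elongation factor genes, Eif5a alone rose in CD4+ cells (0.67 ± 0.15), and Eif5a (0.84 ± 0.18), Eef1g (0.73 ± 0.14), Eef1b2 (0.51 ± 0.10) and Eef1d (0.46 ± 0.13) rose in CD8+ cells. Of the 4 mitochondrial elongation factor genes, none was called in CD4+ cells, and Gfm2 (0.73 ± 0.14) and Gfm1 (0.52 ± 0.13) rose in CD8+ cells. The mean of Gfm2 was already above WT in STAT3-/- cells. It was 22.1, 33.8 and 36.4 CPM in WT, STAT3-/- and STAT3-/-PD-1-/- CD8+ cells, and 21.2, 32.8 and 30.3 CPM in CD4+ cells.

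Of 18 tested genes of the amino acid response, the same 5 rose over WT in each subset and none fell, where 12.9% (CD4+) and 17.2% (CD8+) of all genes were called. The list did not move as a whole, with 11 of the 18 above and 7 below 0 in each subset and medians of 0.08 (CD4+) and 0.20 (CD8+). Ddit3, a transcription factor of the stress response, had log2 fold changes of -1.30 ± 0.60 and -1.78 ± 0.61 and was not called. Asns, asparagine synthetase, was 7.87 and 8.55 CPM in WT and 28.9 and 39.7 CPM in STAT3-/-PD-1-/- CD4+ cells, and 17.0 and 16.2 against 47.2 and 62.8 CPM in CD8+ cells, with log2 fold changes of 2.08 ± 0.23 and 1.74 ± 0.29 (edgeR adjusted p = 0.00414 and 0.0111). The others were Phgdh (1.15 and 0.85) and Psat1 (0.92 and 0.82) of serine synthesis, Shmt2 (1.14 and 1.01) of mitochondrial one-carbon metabolism and Slc7a5 (1.04 and 1.00), a carrier of large neutral amino acids. Atf4 itself was not called. It was 410, 371 and 269 CPM in the replicate 1 libraries of WT, STAT3-/- and STAT3-/-PD-1-/- CD4+ cells, and 203, 188 and 204 CPM in those of replicate 2, so that each replicate 1 library lay above all those of replicate 2, and the CD8+ libraries showed the same split (417, 374 and 260 against 210, 207 and 204 CPM). Within replicate 1 the STAT3-/-PD-1-/- libraries had the lowest Atf4 level, and within replicate 2 the genotypes were close together. Myc was 77.5 and 65.9 CPM in WT and 97.8 and 56.7 CPM in STAT3-/-PD-1-/- CD4+ cells and was not called in either subset (0.13 ± 0.33 and 0.39 ± 0.34). Of Myc and its 6 partner genes, none was called over WT. Against STAT3-/- cells Mxd4, of the MXD family that competes with MYC for MAX, fell in CD4+ (by 1.22) and CD8+ cells (by 0.80). Mxd3 also fell against STAT3-/- in CD8+ cells (by 0.70). Of all genes, 601 of 11959 (CD4+) and 966 of 12002 (CD8+) were called lower than in STAT3-/- cells.

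The 5 genes with TGATGNAA in the promoter window had log2 fold changes over WT of 0.34 to 0.55 in CD4+ and 0.29 to 0.60 in CD8+ cells, with none called in CD4+ and 2 (Iars and Yars) called in CD8+ cells. Of the 22 genes whose window lacked the letters, 14 were mitochondrial. The 8 cytosolic genes among them had 2 calls in CD4+ and 4 in CD8+ cells, and within the cytosolic genes the medians were 0.40 with and 0.37 without the letters in CD4+ cells, and 0.51 and 0.39 in CD8+ cells. Cars, Lars, Nars, Vars and Wars were among the genes called with no window in the table.

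Genes of cell division also rose over WT. Of 14 proliferation genes, 12 rose over WT in STAT3-/-PD-1-/- CD4+ cells (median log2 fold change 0.90, Mcm5 1.13 ± 0.17) and 9 in CD8+ cells (median 0.55, Mcm7 0.82 ± 0.14). Over all genes, 7.21% (CD4+) and 9.01% (CD8+) were called higher. Against STAT3-/- CD8+ cells, 1 of the 14 was called and their median was 0.25. Against STAT3-/- CD4+ cells, 8 of the 14 were called higher and their median was 0.66. Of all genes, 8.76% (CD8+) and 6.05% (CD4+) were called higher in these comparisons. The summed level of the 14, given first for WT, then for single and then for double deficient cells, was 4660 and 3664, 5299 and 4686, and 7431 and 7079 CPM in CD4+ cells, and in CD8+ cells 6554 and 5304, 8266 and 7373, and 8665 and 8226 CPM, with Mki67 as the most abundant gene. For STAT3-/- over WT, 0 of the 14 were called in either subset, with medians of 0.26 (CD4+) and 0.29 (CD8+). Some T cell genes were lower than in WT. Over all genes, STAT3-/-PD-1-/- cells had 676 of 11959 (CD4+) and 985 of 12002 (CD8+) called lower than WT. In CD8+ STAT3-/-PD-1-/- cells 4 of 6 T cell markers fell (Cd2 by 0.69, Cd3d by 0.67, Cd247 by 0.64 and Lck by 0.46 on the log2 scale) and the other 2 were not called, and Cd8a fell by 1.09 ± 0.12. In CD4+ cells 1 of the 6, Cd2, fell (by 0.53), and Cd4 fell by 0.52. Of 8 tested interferon-gamma axis genes, Socs1 and Ifngr1 fell in both subsets and Irf9 in CD8+ cells, and Gbp3 rose in CD4+ cells (0.90 ± 0.20). The 9 macrophage markers, with Cd68 as the most abundant, summed to 30.1 and 38.6 CPM in WT, 27.7 and 35.3 in STAT3-/- and 17.8 and 19.2 in STAT3-/-PD-1-/- CD8+ libraries, and to 9.23 and 19.01, 7.44 and 14.1, and 9.52 and 11.8 CPM in CD4+ libraries. Of the 8 tested, Cd68 was called lower in CD8+ cells and none was called in CD4+ cells, with medians of -2.45 and -2.18. C1qa, which encodes a complement component of macrophages, and Clec4f, a marker of Kupffer cells, stood apart in the replicate 2 libraries of WT and STAT3-/- cells, with 42, 23, 49 and 26 counts of C1qa and 39, 25, 37 and 25 of Clec4f (CD4+ WT and STAT3-/-, then CD8+ WT and STAT3-/-), against 1 to 7 and 1 to 6 counts in the 8 other libraries. In CD8+ cells the B cell gene Cd79b and the NK cell gene Klrb1c, the only ones of their lists that were tested, were called lower, and their lists summed to 14.7 and 10.7 (WT) against 6.01 and 5.22 CPM, and to 49.01 and 56.3 against 22.9 and 11.2 CPM. The part of cell division and of the cell makeup in the synthetase result was not tested.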

How the data were processed

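Donor H-2Kb+ TCRβ+ CD4+ or CD8+ cells were sorted from liver and sequenced after a stranded mRNA kit (the study's methods and the labels name different kits). The authors aligned single-end reads to mm10 with STAR and counted RefSeq genes with HTSeq-count, per the study's methods. The deposited counts per gene, 21676125 to 24551477 per library, were tested with edgeR 4.0.16 (glmQLFit and glmQLFTest, R 4.3.3), with filterByExpr (minimum count 10, minimum total 15), TMM and Benjamini-Hochberg adjustment over all genes tested, called at an adjusted p under 0.05. Genotypes were compared in the 6 libraries of a subset (3 residual degrees of freedom), and subsets in all 12. The deposited RPKM values served 1 alternative, log2(RPKM + 1) with limma 3.58.1. SE is the log2 fold change divided by the square root of edgeR's F.

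Genes named were Stat3, Pdcd1, each comparison's called synthetase genes (or, with none called, the 3 smallest p), the 3 highest and lowest levels per kb, the partner pairs, Atf4, Myc, the scaffolds and up to 4 called genes of each companion list. One companion list is not reported here. Psat1, Ddit3, C1qa, Clec4f, Qars, Sars, Dars, Gars, Kars and Asns were added after their values were seen. The genes and the lists were chosen with earlier results of these data known. Alternatives were DESeq2 1.42.0, other filters, no TMM, 4 libraries, replicate blocks and leaving out each library. Scripts were tested on simulated data.

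Replicates in a group differed by more than sampling noise. The study describes its CD8+ cells as taken from livers of the same recipients as the CD4+ cells, without naming a replicate number, and CD4+ and CD8+ libraries of the same genotype and number had correlated deviations (r = 0.629, 0.625 and 0.75), so they were also compared with this pairing as a block. Precision rests on 2 libraries a group. Promoter windows are RefSeq's, GRCm38.p6.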

Additional observations from a re-analysis of the deposited data

Results flagged for a closer look

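One gene was marked because its groups did not overlap in opposite directions in the 2 subsets. Iars2, the mitochondrial isoleucine enzyme, was 139 and 137 CPM in WT and 127 and 131 CPM in STAT3-/- CD4+ cells (log2 fold change -0.0928), and 151 and 155 against 157 and 158 CPM in CD8+ cells (0.0332). The interaction term did not pass the test, with a difference of 0.13 ± 0.14 (edgeR adjusted p = 1). Groups of 2 libraries are too small to look for single outlying samples.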

How the results depend on the processing

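The direction of every called synthetase gene held under every alternative run for it (0 reversals in 297 combinations of gene and setting), but 110 of these lost the call. Calls over all genes, which also moved, follow each count in parentheses. Against a CD8+ STAT3-/-PD-1-/- over WT count of 13 (2066), the 4 compared libraries alone gave 8 (1944). For CD4+ STAT3-/-PD-1-/- over STAT3-/-, against 1 (1324), DESeq2 gave 7 (2098), no filter 2 (1645), library totals without TMM 5 (1435) and log2(RPKM + 1) 2 (1283). For CD8+ STAT3-/-PD-1-/- over STAT3-/-, against 10 (2017), DESeq2 gave 16 (2800) and no TMM 17 (2174). With the replicate number as a block the counts were 12 (3104) for CD4+ over WT, 15 (3105) for CD4+ over STAT3-/-, 17 (2965) for CD8+ over WT and 16 (2932) for CD8+ over STAT3-/-. The titles put each replicate number in its own run of library numbers without saying what it marks. Same-numbered deviations correlated by 0.0464 to 0.733 in CD8+ and 0.213 to 0.725 in CD4+ cells, highest between STAT3-/- and WT. The fit without the block was kept as planned. Blocked counts are given beside it for STAT3-/-PD-1-/- over WT and over STAT3-/-, and none is given for STAT3-/- over WT. The block of genotype and number gave 3 for CD8+ over CD4+ in WT.

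Without TMM, cytosolic medians were 0.551 (CD4+ over STAT3-/-), 0.521 (CD8+ over WT) and 0.519 (CD8+ over STAT3-/-), and mitochondrial medians 0.345 and 0.289 in CD8+ cells. The CD8+ mitochondrial median over WT was 0.244 with log2(RPKM + 1), 0.366 with Gars and Kars added and, in an alternative chosen after seeing the data, 0.363 without Lars2.

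Leaving out each library gave counts of 0 to 0 and 0 to 1 in CD4+ and 0 to 4 and 0 to 4 in CD8+ cells for STAT3-/-PD-1-/- over WT and over STAT3-/-. Cytosolic medians ranged 0.325 to 0.436 and 0.396 to 0.483 in CD4+, 0.383 to 0.515 and 0.373 to 0.480 in CD8+ cells, and 0.0895 to 0.220 for CD8+ over CD4+ in WT. Mitochondrial medians ranged 0.200 to 0.286 and 0.168 to 0.306 in CD8+ cells, and for STAT3-/- over WT -0.063 to 0.157 (CD4+) and 0.0312 to 0.165 (CD8+). An arm left with 1 library was assumed to vary like the others. With 2 libraries a group, a gene that missed the threshold was not shown to be unchanged.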
